A study of Mus musculus with 2 samples.

Results

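The cells described here are kidney cells whose transcripts placed them in a gate for epithelium of the loop of Henle and the distal tubule. A cell entered the gate when at least 4 of the 8 genes Umod, Epcam, Wfdc2, Cd24a, Fxyd2, Defb1, Klk1 and Atp1b1 were detected, with Epcam or Umod among them. In addition, the proximal tubule genes Kap, Miox and Slc34a1 together had to make up less than 0.5% of the cell's unique molecular identifiers (UMIs), the tags that mark single captured transcripts. Of 11708 cells that passed the quality filters, 405 met this rule. They were 45 of 1052 cells labelled UUO (4.28%, exact Clopper-Pearson 95% interval 3.14 to 5.68%) and 360 of 10656 cells labelled sham (3.38%, 3.04 to 3.74%). These genes chose the cells, so their levels are given below as a description.

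Both libraries came from kidneys of FVBN mice, and both hold cells labelled as positive for PDGFR alpha and PDGFR beta, the receptors that mark fibroblasts, pericytes and other stromal cells. The library labelled UUO is from a kidney taken 10 days after unilateral ureteral obstruction, the surgical closure of a ureter that is used as a model of kidney fibrosis. The library labelled sham is from a sham-operated kidney. The labels name no transgene, although a reporter sequence, eGFP, is among the measured genes. Each group is a single library without replicates, so nothing was tested, and all intervals cover counting error only. Both Xist without Y-linked transcripts and the reverse occurred in each library (231 and 274 cells outside the gate labelled UUO, 5575 and 1701 labelled sham), and the labels do not say how many animals were used. The 45 gated cells labelled UUO had a median of 7848 UMIs and 364784 in all, and the 360 labelled sham had a median of 11092 and 4502410 in all. The libraries shared 16 barcodes, 1 of them in a gated cell of each.

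The thick ascending limb of the loop of Henle takes up salt from the tubule fluid through the cotransporter encoded by Slc12a1 and secretes uromodulin, the product of Umod and the main protein of normal urine. The distal convoluted tubule takes up salt through Slc12a3, the connecting tubule moves calcium with the binding proteins encoded by S100g and Calb1, and the principal cells of the connecting tubule and collecting duct take up water through Aqp2. These epithelia stand next to the stroma and are known to switch on stress and defence genes, such as Lcn2 and Clu, when the kidney is injured.

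Over the whole gate, genes known from injured tubules did not follow the library labels as one group. Some gated cells were not led by tubule genes, as given below. Of 25 listed injury genes, 15 were compared between gated cells labelled UUO and sham, of which 5 (C3, Cdkn1a, Vim, Timp2 and Cryab) were at least 2-fold higher and 6 (Lcn2, Spp1, Clu, Krt7, Lgals3 and Tnfrsf12a) at least 2-fold lower in those labelled UUO. The median log2 ratio of the 15 was 0.67, against 0.03 for all genes compared. Over all 1995 genes compared, 17.5% were that much higher and 7.32% lower. Lcn2, which encodes the iron-scavenging protein lipocalin 2, had 0 UMIs in the 45 gated cells labelled UUO and 9287 UMIs in the 360 labelled sham, which is 2063 CPM. CPM is a gene's count scaled by the summed UMIs of all genes in the same group of cells. Clu, which encodes the secreted chaperone clusterin, stood at 458 CPM in gated cells labelled UUO and 4254 CPM in those labelled sham. Spp1, which encodes osteopontin, stood at 367 CPM in gated cells labelled UUO and 29090 CPM in those labelled sham. Cryab, a small heat shock protein gene, stood at 951 CPM in gated cells labelled UUO and 346 CPM in those labelled sham. However, 1 cell held 266 of the 347 Cryab UMIs labelled UUO, and without it Cryab stood there at 230 CPM, below the level labelled sham. The intermediate filament gene Vim stood at 979 CPM labelled UUO and 378 CPM labelled sham. The 5 higher genes lay mostly in gated cells not named for a tubule segment below. The 10 cells labelled UUO that were so named held 5 of 357 Vim, 5 of 278 Timp2 and 2 of 77 C3 UMIs. They held 1 of 75.9 Cdkn1a and 4 of 347 Cryab UMIs, and 21981 of all 364784 UMIs. Since Lcn2, Clu and Spp1 go against the labels, the libraries are called by their labels throughout, and differences between them are not ascribed to the obstruction.

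The gate also took cells that were not led by tubule genes, and these made up more of the gate in the library labelled UUO. When the 405 gated cells of both libraries were divided by expression into 10 sub-clusters, numbered by size, 5 carried the markers of a tubule segment and held 245 cells. A sub-cluster was named for a segment where at least 3 of its markers were 4-fold above the cells outside the gate and in 10% of the cells, with 1 among the 10 leading genes, a rule set after the sub-clusters had been seen. Those 5 sub-clusters held 10 of the 45 gated cells labelled UUO (22.2%) and 235 of the 360 labelled sham (65.3%). As a share of all retained cells this was 0.951% in the library labelled UUO (exact 95% interval 0.457 to 1.74%) and 2.21% in the library labelled sham (1.93 to 2.50%). The 10 cells labelled UUO were shallow, with a median of 1357 UMIs and 21981 in all, against a median of 9952 and 2733840 in all for the 235 labelled sham. The gate is therefore described below both whole and for the segment-named cells alone.

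**Figure D1:**
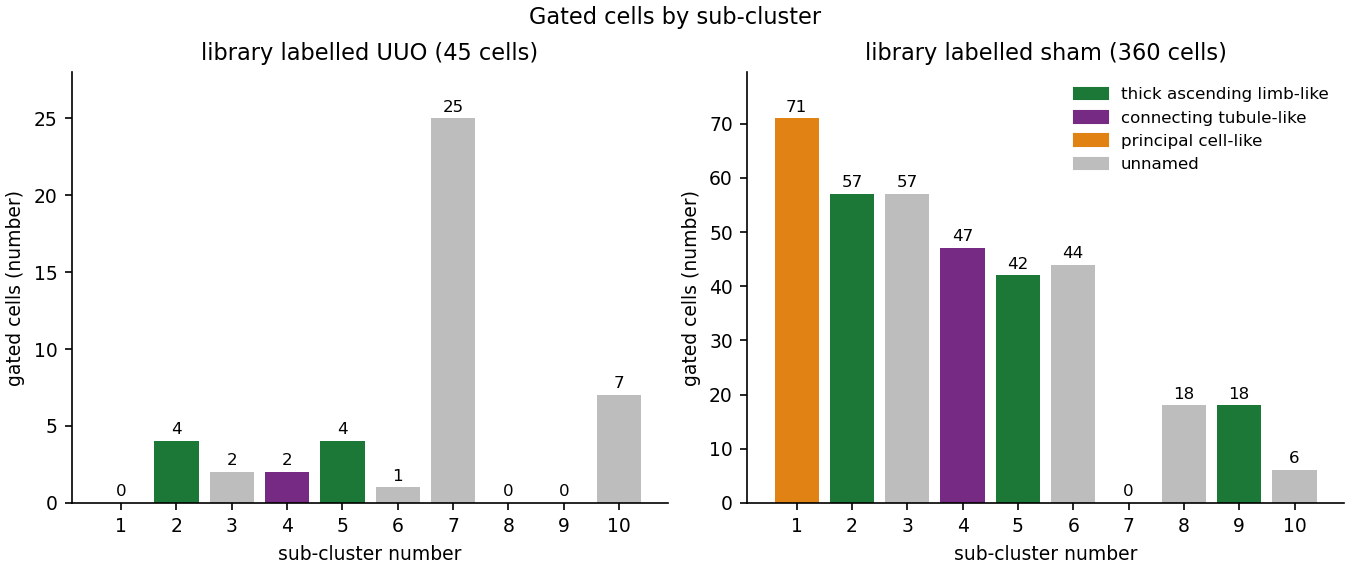
Number of gated cells (vertical axis, scaled separately for each library) in each of the 10 sub-clusters (horizontal axis), library labelled UUO on the left and sham on the right. Colours give the segment name. Of the 45 gated cells labelled UUO, 25 lay in the unnamed sub-cluster 7, which held no cell labelled sham.

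The unnamed sub-clusters carried the genes of other kidney cells beside a few transcripts of the gate genes. Sub-cluster 7, with 25 cells labelled UUO and 0 labelled sham, was led by Clec3b, Sfrp4, Rbp4 and Apod, and Dcn, the gene of the collagen-binding proteoglycan decorin, stood there at 14537 CPM. Sub-cluster 10, with 7 cells labelled UUO and 6 labelled sham, was led by the endothelial genes Fabp4 and Plvap. Ren1, the renin gene, stood there at 3073 CPM, with 330 and 102 UMIs in 2 cells labelled UUO. Sub-clusters 3 and 6, almost all labelled sham (57 of 59 and 44 of 45 cells), had the contractile gene Acta2 at 2247 and 1282 CPM and Col1a1, which encodes a chain of type I collagen, at 2132 and 1772 CPM. Sub-cluster 8, with 18 cells labelled sham, was led by Spink1, Cd74 and H2-Ab1, with genes of the proximal tubule beside genes of antigen presentation.

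Signs of more than 1 cell per barcode went with the unnamed sub-clusters. Transcripts of both Xist and Y-linked genes were present in 38 of 125 unnamed gated cells labelled sham (30.4%), against 16.6% of the segment-named cells and 12.8% of the cells outside the gate. Among cells labelled UUO they were present in 5 of 35 unnamed gated cells (14.3%), 0 of 10 segment-named cells and 7.94% of cells outside the gate. The 10 cells had a median of 1357 UMIs, and 9 of them carried neither kind of transcript, so their 0 says little. Unnamed gated cells were deeper, with a median of 13099 UMIs labelled sham, against 9952 (segment-named) and 7726 (outside the gate). The shares were not adjusted for depth. A doublet score marked 36% of the unnamed gated cells labelled sham, against 7.23% of the segment-named ones. The number of cells to mark was set beforehand from the size of each library. It was 908 cells labelled sham (8.52% of retained cells) and 9 labelled UUO (0.856%). Among gated cells labelled UUO, 1 was marked (2.22%), a count that this preset number keeps low, so it cannot be set against the library labelled sham. The part of barcodes with more than 1 cell in the gate was not tested.

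The number of gate genes detected in a cell showed where the gate left the stroma. Cells just outside it, with 3 gate genes, had 8 epithelial genes that the gate did not use (Cdh1, Cdh16, Krt8, Krt18, Pax2, Pax8, Mal and Spint2) at a summed 56.5 CPM in the library labelled UUO (29 cells) and 57.1 CPM in the library labelled sham (288 cells). With 4 gate genes the sum was 120 CPM in 28 cells labelled UUO and 459.7 CPM in 86 labelled sham. With 5 gate genes it was 716 CPM in 7 cells labelled UUO and 2629 CPM in 54 labelled sham. At 6 gate genes it was 1281 CPM in 8 cells labelled UUO, and at 7 it was 230 CPM in 2 cells. Among cells labelled sham it stayed between 2899 and 3431 CPM at 6, 7 and 8 gate genes.

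A list of 8 fibroblast genes was lower at 5 or more gate genes than just outside the gate in both libraries, but not at 4 gate genes in the library labelled UUO. Among cells labelled UUO its sum was 20706 CPM at 4 gate genes, 4214 CPM at 5, 6229 CPM at 6 and 2608 CPM at 7, against 14047 CPM just outside the gate. Among cells labelled sham it was 10562 CPM at 4 gate genes, 5039 CPM at 5 and 1788 CPM at 7, against 11703 CPM just outside the gate. Of the cells with 4 gate genes, 2 of 28 labelled UUO and 7 of 86 labelled sham lay in segment-named sub-clusters.

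**Figure D2:**
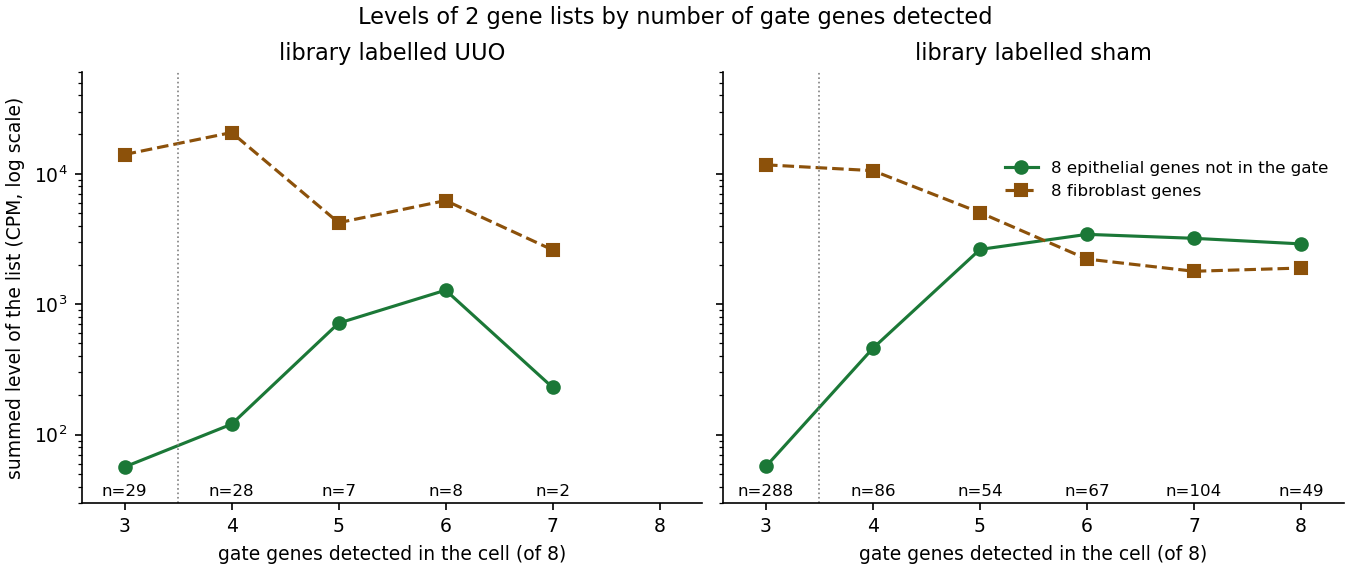
Summed level (CPM, log scale) of 8 epithelial genes that the gate did not use (circles) and 8 fibroblast genes (squares) by the number of gate genes detected, library labelled UUO on the left and sham on the right. Cells left of the dotted line are just outside the gate, and n is the number of cells. Among cells labelled sham the epithelial list passes the fibroblast list at 6 gate genes.

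Of the 245 segment-named cells, 125 were thick ascending limb-like, 8 of them labelled UUO and 117 labelled sham, in sub-clusters 2, 5 and 9. Umod (ENSMUSG00000030963.6, chr7:119462711-119479282, minus strand, GRCm38) was detected in all 8 and all 117, at 6598 CPM (exact Poisson 95% interval 5113 to 8379) in the cells labelled UUO and 7649 CPM (7495 to 7805) in those labelled sham. Slc12a1 stood at 295 CPM in the cells labelled UUO, from 3 UMIs, and at 593 CPM in those labelled sham. The intervals of the libraries overlapped for both genes. The 8 cells labelled UUO carried 24, 16, 8, 7, 5, 4, 2 and 1 Umod UMIs. Among cells outside the gate labelled sham, which had a median of 7726 UMIs, 16.1% carried a Umod UMI, and Umod stood there at 23.2 CPM.

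The thick ascending limb-like cells labelled sham also carried the tight junction genes of paracellular calcium and magnesium uptake. Cldn16 stood at 163 CPM, Cldn19 at 169 CPM and Cldn10, which forms a cation-selective pore, at 700 CPM. Casr, the calcium-sensing receptor gene, and Cldn14, a claudin gene under its control, were low, at 12.2 and 26.0 CPM. The apical potassium channel gene Kcnj1 stood at 146 CPM and the growth factor gene Egf at 135 CPM. In both libraries together, Egf stood at 70.3, 197 and 268 CPM in sub-clusters 2, 5 and 9. Umod followed the same order, at 6517, 7243 and 13194 CPM.

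The connecting tubule-like cells, sub-cluster 4, were a mixture by their markers. The sub-cluster was named for S100g, Klk1 and Calb1 among its 10 leading genes, but against cells outside the gate it also met 6 thick ascending limb, 2 distal convoluted tubule and 3 principal cell markers. They numbered 2 labelled UUO and 47 labelled sham. The 2 cells labelled UUO carried 916 and 204 UMIs of S100g, 80 and 16 of Calb1 and 0 of Slc12a3. In the 47 cells labelled sham, Slc12a3 of the distal convoluted tubule stood at 946 CPM in 30 of 47 cells, and S100g stood at 768 CPM in 11 of 47. Klk1, a gate gene that encodes tissue kallikrein, stood at 1501 CPM, and Atp6v1g3, a proton pump subunit of intercalated cells, at 330 CPM. In both libraries together, only 8.16% of the cells of sub-cluster 4 carried Atp6v1g3. Of the 235 segment-named cells labelled sham, 39 carried Slc12a3, 50 carried S100g and 8 carried both. Of the 3 connecting tubule markers that named sub-cluster 4, Calb1 was in 7 of the 47 cells labelled sham and S100g in 11. The gate gene Klk1 was in 24. Slc12a3 was in more of these 47 cells than any of the 3. The name connecting tubule-like is therefore only a label for sub-cluster 4 below. Slc12a1 was in 99 of those 235 cells, 5 of which also carried Slc12a3.

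The principal cell-like cells, sub-cluster 1, were all 71 labelled sham. Fxyd4, a regulator of the sodium pump, stood at 535 CPM in 41 of 71 cells. Hsd11b2, the enzyme that shields the mineralocorticoid receptor from glucocorticoids, stood at 285 CPM in 36 cells, and Gata3, a transcription factor of the distal nephron, at 83.5 CPM. Aqp2 stood at 211 CPM, but only 14 cells carried it. Of the 198 Aqp2 UMIs in all gated cells labelled sham, 55.1% lay in 1 cell. Krt18 was highest here, at 1297 CPM, against 230 CPM in thick ascending limb-like and 410 CPM in connecting tubule-like cells labelled sham.

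**Figure D3:**
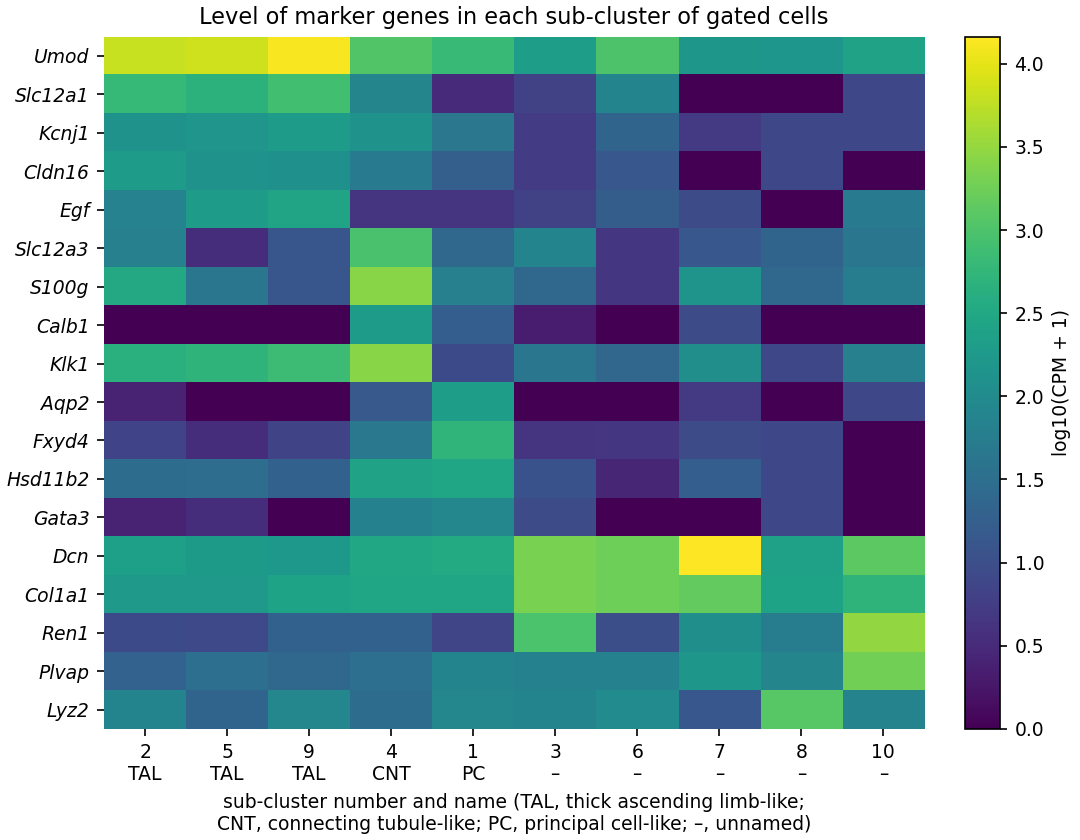
Level (log10 of CPM plus 1, colour) of segment markers and of markers of other cells (vertical axis) in each sub-cluster of gated cells of both libraries (horizontal axis). Umod and Slc12a1 are highest in sub-clusters 2, 5 and 9, Slc12a3 and S100g in 4, Fxyd4 and Aqp2 in 1, and Dcn in the unnamed sub-cluster 7.

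One listed marker gene per named segment, with Umod for the gate itself, is shown with the 250 bases before its start. The sequences are from RefSeq (GRCm38.p6), 5′ to 3′ on the gene's strand. The windows are chr7:119479263-119479512 (minus strand) for Umod, chr2:125152350-125152599 (plus) for Slc12a1, chrX:162964600-162964849 (minus) for S100g and chr15:99578806-99579055 (plus) for Aqp2. Capitals mark the letters TATAA, searched on both strands, the core of the TATA box at which transcription of some genes is started.
Umod: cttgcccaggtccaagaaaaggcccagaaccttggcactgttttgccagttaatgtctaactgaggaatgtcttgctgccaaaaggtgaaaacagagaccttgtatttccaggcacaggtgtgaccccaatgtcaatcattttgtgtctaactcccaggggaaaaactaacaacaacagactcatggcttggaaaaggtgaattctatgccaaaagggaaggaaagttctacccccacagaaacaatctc
Slc12a1: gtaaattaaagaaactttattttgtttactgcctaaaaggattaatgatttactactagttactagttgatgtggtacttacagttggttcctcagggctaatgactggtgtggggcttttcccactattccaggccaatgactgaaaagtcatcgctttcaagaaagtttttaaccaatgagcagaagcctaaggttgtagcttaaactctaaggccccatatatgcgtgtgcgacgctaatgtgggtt
S100g: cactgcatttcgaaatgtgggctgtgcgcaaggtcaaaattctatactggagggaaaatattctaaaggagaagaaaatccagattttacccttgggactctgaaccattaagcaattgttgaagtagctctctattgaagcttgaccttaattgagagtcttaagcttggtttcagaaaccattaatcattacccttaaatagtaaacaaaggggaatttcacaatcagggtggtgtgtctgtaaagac
Aqp2: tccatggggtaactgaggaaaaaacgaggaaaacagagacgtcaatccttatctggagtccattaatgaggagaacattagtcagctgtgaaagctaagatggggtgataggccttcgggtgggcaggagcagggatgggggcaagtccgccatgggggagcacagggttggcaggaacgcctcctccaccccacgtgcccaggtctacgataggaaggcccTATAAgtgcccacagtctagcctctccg

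TATAA was present in the Aqp2 window, 28 to 24 bases before the start, and in none of the other 3 windows. Of 32851 mouse promoter windows of the same length, 22.8% held it. The motif was chosen after these windows had been read, and a match describes letters only.

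Compared with the other cells of the library labelled sham, the gated cells were marked by epithelial genes that the gate had not used. Of 1784 genes with at least 100 CPM and 10 UMIs in the higher group, 68 were at least 4-fold higher in gated cells (3.81%) and 1 at least 4-fold lower (0.0561%), after 20 CPM had been added to each value. Since gated cells were chosen by marker UMIs in these same cells, this is a description. Among genes the gate did not use, Clu was highest, at 4254 CPM in gated cells and 38.0 CPM in the rest, a ratio of 112 (95% interval 108 to 116). Lcn2 followed, at 2063 and 14.7 CPM. Spint2, a protease inhibitor of epithelia, stood at 902 CPM in gated cells and 25.1 CPM in the rest, and the keratin genes Krt8, Krt18 and Krt7 at 458, 398 and 364 CPM in gated cells and 5.27, 3.54 and 3.27 CPM in the rest. Ldhb, the lactate dehydrogenase subunit of oxidative tissue, stood at 1596 CPM in gated cells and 76.3 CPM in the rest.

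The fixed lists of epithelial function mostly lay above the rest of the library. All 11 pan-tubule genes that passed the level filter, of 15 listed, were at least 4-fold higher in gated cells labelled sham, 6 of them gate genes. All 6 junction genes that passed the filter, of 18 listed, passed that fold too, with Cldn7 at 252 CPM in gated cells and 2.52 CPM in the rest. Of 26 genes of salt transport, 7 passed the filter and 6 the fold, and Atp1b1 and Fxyd2 among the 7 are gate genes. Of 23 nuclear genes listed for mitochondrial energy, 20 passed the filter and 1 (Ldhb) the fold, with a median log2 ratio of 0.63, against -0.04 for all genes compared. The list also holds Ldhb and Ckb, whose enzymes lie in the cytosol. The 9 mitochondrially encoded genes had a median of 0.83, and the median share of mitochondrial UMIs was 4.30% in gated cells labelled sham and 2.18% in the rest. The 8 fibroblast genes had a median of -1.30 and none passed the fold.

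A few transcription factors, named after their values were seen, are given by segment in cells labelled sham. Irx1 and Irx2 stood at 89.5 and 90.3 CPM in thick ascending limb-like cells and at 13.0 and 28.2 CPM in principal cell-like cells. Emx1, listed for the distal convoluted tubule, stood at 82.4 CPM in connecting tubule-like cells and 0 in thick ascending limb-like cells. Tfcp2l1, a factor of distal tubule and collecting duct, stood at 149, 276 and 93.2 CPM in thick ascending limb-, connecting tubule- and principal cell-like cells. Foxi1, the factor that defines intercalated cells, reached 18.9 CPM at most, in connecting tubule-like cells. Of 29 listed factors, 3 passed the level filter between gated and other cells labelled sham, and 2 (Tfcp2l1 and Elf3) were at least 4-fold higher in gated cells.

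Clu and Lcn2 were high in all 3 named groups of the library labelled sham. Clu stood at 6596, 6500 and 6778 CPM in thick ascending limb-, connecting tubule- and principal cell-like cells, against 38.0 CPM in cells outside the gate, and was carried by 110 of 117, 47 of 47 and 71 of 71 cells. Lcn2 differed more, at 2473, 1877 and 5115 CPM, against 14.7 CPM outside the gate. Gdf15 and Ankrd1, stress-induced genes, were highest in principal cell-like cells, at 167 and 150 CPM. Spp1 stood at 54704, 23489 and 24483 CPM, but it also stood at 12518 CPM outside the gate, where 99.8% of cells carried it. Havcr1, the injury marker of the proximal tubule, stood at 2.19 CPM in segment-named cells labelled sham. Of 25 listed injury genes, 11 passed the level filter and 4 (Clu, Lcn2, Krt7 and Lgals3) were at least 4-fold higher in gated cells labelled sham.

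**Figure D4:**
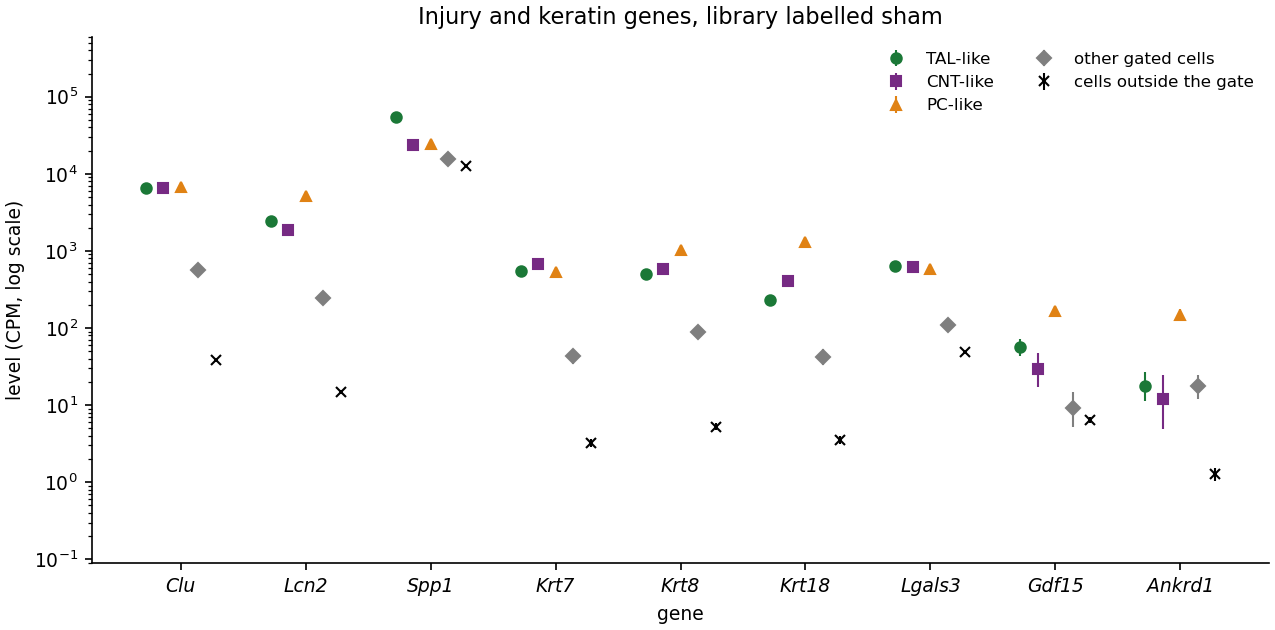
Level (CPM, log scale) of injury and keratin genes in the library labelled sham, for the 3 named groups of gated cells (TAL, thick ascending limb; CNT, connecting tubule; PC, principal cell), the other gated cells and the cells outside the gate. Bars are exact Poisson 95% intervals for counting error. Clu, Lcn2 and Krt7 lie at least 100-fold higher in each named group than outside the gate.

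Of 16 genes of innate defence, 7 passed the filter and 4 were at least 4-fold higher in gated cells labelled sham, 3 of them gate genes (Umod, Wfdc2 and Defb1) besides Lcn2. Pigr, the transporter of secreted antibodies, stood at 102 CPM in thick ascending limb-like cells labelled sham and 17.5 CPM in principal cell-like ones. Cd14, a co-receptor for bacterial lipopolysaccharide, stood at 303 CPM in segment-named cells labelled sham and 47.0 CPM outside the gate. Among 34 signals to stroma and leukocytes, 8 passed the filter and none was 4-fold apart, with a median log2 ratio of -0.89. Cxcl1 and Cxcl2, which attract neutrophils, stood at 287 and 204 CPM in principal cell-like cells and at 13.0 and 19.5 CPM in thick ascending limb-like cells. Of their UMIs in gated cells labelled sham, 1 cell held 23.4% for Cxcl1 and 1 cell 26.8% for Cxcl2. Pdgfb, a ligand of the sorted receptors, stood at 51.6 CPM in segment-named cells labelled sham and 1.86 CPM outside the gate. Urothelial genes were near 0, with Krt5 and Upk3a at 0 in all gated cells.

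The sorted receptors were low in segment-named cells. Pdgfra had 0 UMIs in the 10 cells labelled UUO, where the limit of 3 UMIs is 136 CPM, and stood at 33.7 CPM in the 235 labelled sham. Stromal cells, taken as cells with at least 6 of 8 fibroblast genes, had 274 CPM in the library labelled UUO and 258 CPM in the library labelled sham. Pdgfrb likewise had 0 UMIs in the 10 cells labelled UUO and 39.5 CPM in those labelled sham, against 160 and 308 CPM in stromal cells labelled UUO and sham. Endothelial cells, taken as cells with at least 3 of 6 endothelial genes, had 33.2 CPM of Pdgfra labelled UUO and 32.3 CPM labelled sham. The unnamed gated cells held 184 CPM of Pdgfra labelled UUO and 191 CPM labelled sham.

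The reporter eGFP stood at 136 CPM in segment-named cells labelled UUO, from 3 UMIs, and at 59.6 CPM in those labelled sham. In the unnamed gated cells it stood at 805 CPM labelled UUO and 664 CPM labelled sham, against 663 and 826 CPM in stromal cells labelled UUO and sham. Endothelial cells had 288 CPM labelled UUO and 276 CPM labelled sham. After thinning each cell to 1000 UMIs, 1.30% of 231 segment-named cells labelled sham still carried a Pdgfra UMI, against 24.9% of 7003 stromal cells. Without thinning the shares were 23.0% at a median of 9952 UMIs and 85.4% at a median of 8906 UMIs.

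**Figure D5:**
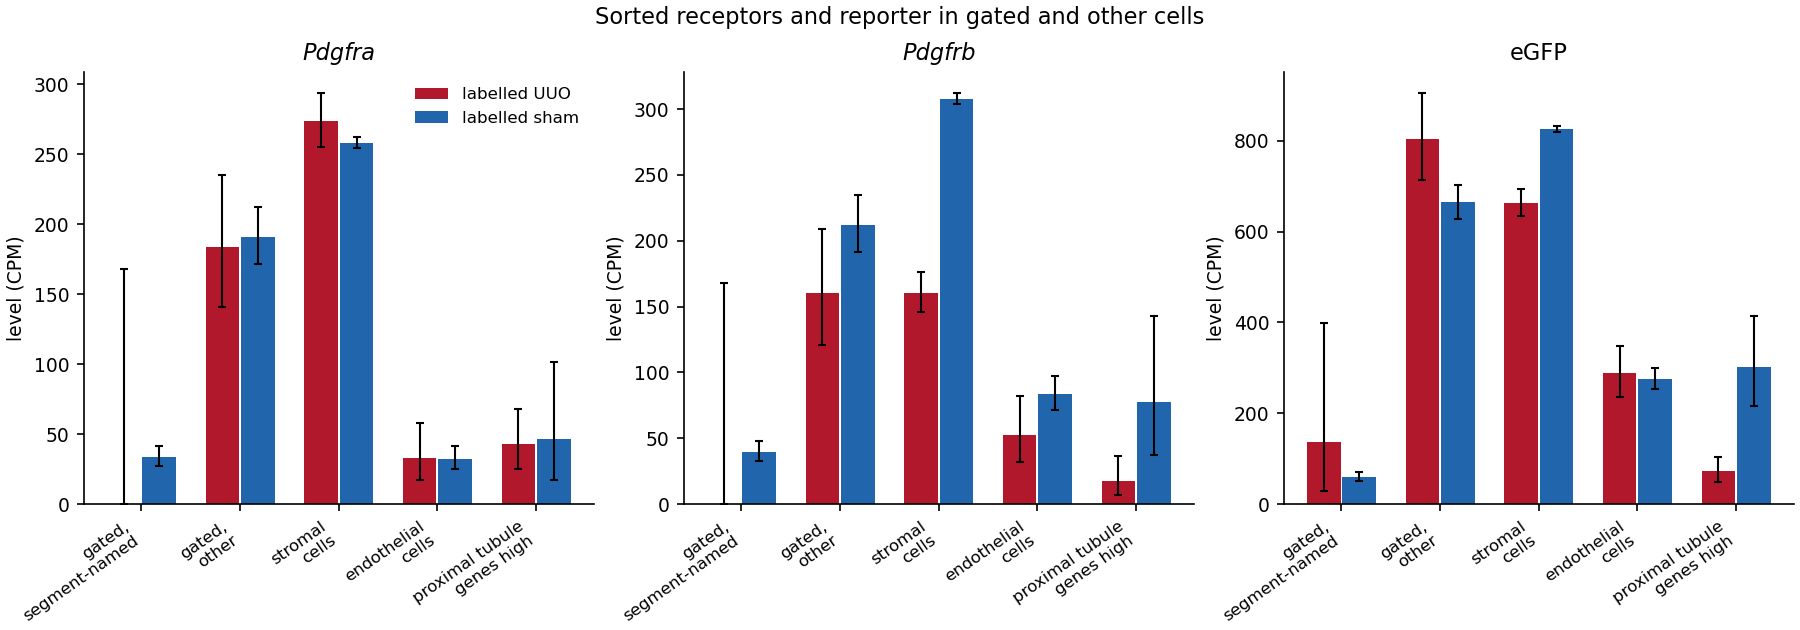
Level (CPM) of the 2 sorted receptors and of the eGFP reporter in gated cells of segment-named and other sub-clusters and in 3 kinds of cells outside the gate, library labelled UUO left of sham in each pair. Error bars are exact Poisson 95% intervals for counting error. Segment-named cells labelled sham lie at the level of endothelial cells for Pdgfra (33.7 and 32.3 CPM) and below it for eGFP (59.6 and 276 CPM).

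The gate stood out less from the other cells in the library labelled UUO, although the difference between the libraries was not tested. Of 1835 genes, 12 were at least 4-fold higher in gated cells (0.654%) and 8 at least 4-fold lower (0.436%). The 12 were S100g, Klk1, Npy, Umod, Calb1, Clu, Defb1, Wfdc15b, Epcam, Wfdc2, Ppp1r1a and Angpt2, of which 5 are gate genes. The 8 lower ones were 4 globin genes, Ccl21a with the near-identical Gm13304 and Gm21541, and Cxcl13. Near-identical globin and Ccl21a copies share UMIs, so their split is uncertain. None of the 8 fibroblast genes was 4-fold apart, with Dcn at 10168 CPM in gated cells and 11140 CPM in the rest.

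Several of these 12 rested on single cells. S100g stood at 3213 CPM in gated cells labelled UUO, against 106 CPM in the rest, but 1 cell held 916 of its 1172 UMIs. That cell also held 642 of 732 Klk1 UMIs, 80 of 99 Calb1 UMIs and 149 of 167 Clu UMIs. Without it the gate stood at 722 CPM for S100g, 254 CPM for Klk1, 53.6 CPM for Calb1 and 50.7 CPM for Clu. It was 1 of the 2 connecting tubule-like cells labelled UUO, had 10064 UMIs and 12.5% mitochondrial UMIs, and carried 1 Umod UMI. Another cell held 170 of the 172 UMIs of Npy, the gene of neuropeptide Y. Of 132 Umod UMIs, 67 lay in the 8 thick ascending limb-like cells.

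Between the gated cells labelled UUO and sham, all endothelial genes compared and some fibroblast genes were higher, and most pan-tubule genes lower, in those labelled UUO. Of 1995 genes compared, 350 were at least 2-fold higher in gated cells labelled UUO (17.5%) and 146 at least 2-fold lower (7.32%). The split depended on scaling: TMM scaling gave 262 higher and 246 lower, with a median log2 ratio of all genes of -0.27, against 0.03 without it, and median-of-ratios scaling gave 267 and 237. The highest were Clec3b (1368 CPM labelled UUO and 1.78 CPM labelled sham), Sfrp4 (2092 and 26.0 CPM), Rbp4 (891 and 4.44 CPM), Apod, Ccl11, Gsn, Inmt, Il11ra1 and Npy, besides S100g (3213 and 170 CPM). All but Npy and S100g were among the 10 leading genes of sub-cluster 7, which held no cell labelled sham. Il11ra1 overlaps other genes, and only 70.1% of its values were whole numbers, so its level is uncertain.

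Lcn2 was the lowest of these genes, at least 251-fold lower in gated cells labelled UUO, taking 3 UMIs as the limit for its count of 0. Spp1, Krt18, Krt8, Krt7, Clu and Car15 were also among the 10 lowest outside the gate genes, together with Eprn and Sox4. Car15 overlaps Gm20518 on the same strand, and 54.6% of its values were whole. Of 15 listed pan-tubule genes, 11 were compared, and 10 of these were at least 2-fold lower in gated cells labelled UUO. Since 6 of the 11 are gate genes, this count describes the gate in part. Among the others, Spint2 stood at 143 CPM labelled UUO and 902 CPM labelled sham. All 4 endothelial genes compared were at least 2-fold higher in gated cells labelled UUO, as were 3 of 8 fibroblast genes (Dcn, Lum and Mfap5). The proximal tubule genes Kap and Miox stood at 365 and 345 CPM in gated cells labelled UUO, against 4.66 and 17.8 CPM labelled sham. Outside the gate they stood at 1061 and 1104 CPM labelled UUO, against 18.8 and 12.6 CPM labelled sham. The gate itself limits Kap and Miox, and the cells over that limit (89 labelled UUO and 18 labelled sham) count as outside it. In those 89 cells the 15 listed proximal tubule genes summed to 35249 CPM, against 1021 CPM in stromal cells labelled UUO.

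Restricted to segment-named cells, the comparison looked different. Of 1136 genes with enough UMIs, 112 were at least 2-fold higher in the 10 cells labelled UUO (9.86%) and 413 at least 2-fold lower (36.4%) than in the 235 labelled sham. Of the 413, 135 had 0 UMIs labelled UUO, and 284 remain when genes at 0 are taken at 3 UMIs. The median log2 ratio of all genes was -0.68, a shift against which each ratio has to be read. Of 8 fibroblast genes, 5 were compared, of which 2 (Dcn and Lum) were at least 2-fold higher and 3 (the collagen genes Col1a1, Col1a2 and Col3a1) at least 2-fold lower. Dcn stood at 1410 CPM labelled UUO and 264 CPM labelled sham, and outside the gate at 11140 and 2553 CPM. Clu did not differ beyond counting error, at 7006 CPM labelled UUO and 6637 CPM labelled sham, a ratio of 1.06 (95% interval 0.895 to 1.24). All but 5 of its 154 UMIs labelled UUO lay in 1 of the 2 connecting tubule-like cells. Without that cell Clu stood at 420 CPM in the other 9 cells labelled UUO. Among thick ascending limb-like cells alone, Clu stood at 98.5 CPM labelled UUO, from 1 UMI, and 6596 CPM labelled sham. The exact Poisson 95% interval of that level labelled UUO was 2.49 to 549 CPM.

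The segment-named cells labelled UUO were 8 thick ascending limb-like, 2 connecting tubule-like and 0 principal cell-like, against 117, 47 and 71 labelled sham, so the groups differ in their make-up. Lcn2 and Krt18 had 0 UMIs there, against 3238 and 628 CPM labelled sham, which is at least 23.7-fold and 4.60-fold lower with 3 UMIs as the limit. Spp1 stood at 4003 CPM labelled UUO and 37860 CPM labelled sham, a ratio of 0.106 (95% interval from 0.0848 to 0.13). Spp1 was also lower outside the gate in the library labelled UUO, at 289 CPM, against 12518 CPM in the library labelled sham. Krt8 and Krt7 stood at 227 and 182 CPM labelled UUO and 696 and 572 CPM labelled sham. Of 25 listed injury genes, 11 were compared in segment-named cells, and 0 were at least 2-fold higher in those labelled UUO. At least 2-fold lower were 7, or 6 with 3 UMIs as the limit for genes at 0. Over all genes compared in these cells, 9.86% were that much higher and 36.4% that much lower. With 3 UMIs as the limit for genes at 0, 3 of 4 keratin genes compared, of 9 listed, were at least 2-fold lower. So were 3 of 5 junction genes, of 18 listed. At that limit 284 of all 1136 genes compared were at least 2-fold lower, and the median log2 ratio of all genes was -0.68. Among thick ascending limb-like cells alone, where 3 UMIs labelled UUO are 295 CPM, Lcn2 at 0 was at least 8.37-fold lower than its 2473 CPM labelled sham. Spp1 stood there at 2363 CPM labelled UUO and 54704 CPM labelled sham. Krt18, at 0 labelled UUO and 230 CPM labelled sham, could not be told apart at this depth.

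Several genes of salt transport and nuclear genes of mitochondrial energy were higher in the segment-named cells labelled UUO. Fxyd2, a gate gene that encodes a regulator of the sodium pump, stood at 11100.5 CPM labelled UUO and 3954 CPM labelled sham, with 7636 CPM labelled UUO when the deepest cell is left out. Ppp1r1a, an inhibitor of protein phosphatase 1, stood at 1547 CPM labelled UUO and 292 CPM labelled sham. Of 26 genes of salt transport, 7 were compared, of which 4 (Fxyd2, Wnk1 and Hsd11b2 among them) were at least 2-fold higher in the cells labelled UUO, against 9.86% of all genes compared, and Fxyd2 and Atp1b1 among the 7 are gate genes. Slc12a3 had 0 UMIs labelled UUO and 226 CPM labelled sham, a difference under 2-fold at the limit of 3 UMIs. Of 23 nuclear genes listed for mitochondrial energy, 17 were compared, Ldhb and Ckb among them, and 11 were at least 2-fold higher in the cells labelled UUO. The median log2 ratio of the 17 was 1.11. None of the 9 mitochondrially encoded genes was 2-fold apart, and their sum was 83099.8 CPM labelled UUO, 49296 CPM without the deepest cell, and 58546 CPM labelled sham. The median share of mitochondrial UMIs was 4.81% in segment-named cells labelled UUO and 4.93% in those labelled sham. Of the 15 Hsd11b2 UMIs labelled UUO, 14 lay in the deepest cell. The part of the lower depth of the cells labelled UUO in these ratios was not tested.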

How the data were processed

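Each library is a matrix of expected counts (UMIs of a gene in a cell) that the authors deposited unscaled, made with alevin of Salmon 0.13.1 on mm10, per the submitters' processing notes. The library labelled UUO had 1291 barcodes and 6023070 UMIs, and the library labelled sham 10812 barcodes and 85359300 UMIs, over 53698 gene entries. Barcode calling rules are not given in the sources used here. UMIs that match several genes are divided, and 91.2% of non-zero values labelled UUO and 92.3% labelled sham were whole numbers (to within 1e-06).

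Retained cells had 500 or more UMIs, 300 or more genes and a mitochondrial share of at most 20%. A gate gene was detected at any value above 0. Counts were summed over cells to give CPM, and log2 ratios had 20 CPM added to both values. A gene was compared where the higher group had at least 100 CPM and 10 UMIs. Folds of 2 between libraries and of 4 between gated and other cells were counted. Intervals at 95%, on counts rounded to whole numbers, are exact Poisson for a level, Clopper-Pearson for a share and conditional binomial for a ratio. Bounds for a count of 0 take 3 UMIs.

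The 405 gated cells were clustered in a single run with no batch correction (scanpy 1.11.5, igraph 0.11.9; 1000 variable genes, 15 components, 15 neighbours, Leiden resolution 0.8), so levels by sub-cluster describe what formed them. Doublets were kept in, and leaving out the highest doublet scores was an alternative. Thinning drew 1000 UMIs per cell.

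Leaving out gate, mitochondrial and ribosomal protein genes and unnamed gene models, the genes named were the 15 highest in gated over other cells labelled sham, the 10 highest and 10 lowest in gated cells labelled UUO over sham with at least 20 UMIs, up to 8 of each fixed list by level or ratio, and the 5 leading genes of each sub-cluster, besides gate genes, Pdgfra, Pdgfrb and eGFP. Other genes, such as those past 4-fold in the library labelled UUO and several segment markers and transcription factors, were named after their values were seen. The members and the 33 lists were chosen with earlier results of these data known. Gene coordinates are from GENCODE M21, which matched 52806 entries. Scripts (Python 3.11.15, numpy 2.4.6, scipy 1.17.1, pandas 2.3.3; edgeR 4.0.16 in R 4.3.3 for TMM factors) were tested on simulated data. Alternatives changed the gate, cell filters, scaling, level minimum, CPM added and clustering. Some named genes are not reported here.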

Additional observations from a re-analysis of the deposited data

Results flagged for a closer look

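Barcodes outside the cell filters that still met the rule on gate and proximal tubule genes numbered 9 in the library labelled UUO, of 239 barcodes left out there, and 16 in the library labelled sham, of 156 left out. Of these, 6 labelled UUO and all 16 labelled sham had more than 20% mitochondrial UMIs. They enter no value of the report.

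Of 1439 genes compared between gated and other cells in both libraries, 2 were at least 2-fold apart in opposite directions. Pdzk1ip1 had a log2 ratio of gated over other cells of -1.10 in the library labelled UUO and 3.64 in the library labelled sham, a difference of -4.737. Tm4sf1 had a log2 ratio of 1.17 in the library labelled UUO and -1.02 in the library labelled sham, a difference of 2.193. These differences were not tested.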

How the results depend on the processing

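The gate's share of cells, 4.28% labelled UUO and 3.38% labelled sham, came to 1.62% and 2.57% with at least 5 gate genes, to 2.95% and 2.97% without cells over 1% fibroblast UMIs, and to 0.951% and 2.21% for segment-named cells alone, an alternative chosen after seeing the data. The library labelled UUO thus had the higher share under the gate as reported, although the intervals of the libraries overlapped. Its share was lower with at least 5 gate genes and for segment-named cells. Without cells over 1% fibroblast UMIs the shares were nearly equal. The 496 genes 2-fold apart between gated cells labelled UUO and sham became 1064 with a level minimum of 20 CPM and 274 with 200 CPM. Against other cells, the 20 genes 4-fold apart labelled UUO became 98 with 5 gate genes, 66 without cells rich in fibroblast UMIs, 371 for segment-named cells and 31 with equal weight per cell. The 69 labelled sham became 129 with 5 gate genes, 259 for segment-named cells and 39 with 200 CPM. The share of gated cells labelled sham in segment-named sub-clusters, 65.3%, was 54.7% at Leiden resolution 1.2 and 45.0% when clustered without cells labelled UUO. Of 442 log2 ratios of UUO over sham (34 named genes under 13 alternatives), 262 moved by less than their counting error, 171 moved further and 9 reversed. Klk1 reversed to -0.15 with at most 10% mitochondrial UMIs. For segment-named cells Clu was at 0.078, Epcam 0.094, Atp1b1 0.70, Fxyd2 1.48, Apod -0.10, Ccl11 -0.20, Npy -0.68 and Slc34a1 -0.026. Apod, Ccl11, Npy and Slc34a1 had 0 UMIs in the segment-named cells labelled UUO. Their negative ratios there rest on the 20 CPM added, and their direction cannot be told at this depth. Fewer genes can pass a higher level minimum, and the other causes were not tested.

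No paired analysis was possible because each group is 1 library. Depth limits the segment-named cells labelled UUO most, with 10 cells and 21981 UMIs in which 3 UMIs are 136 CPM.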
